A study of Arabidopsis thaliana with 9 samples.

Results

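The RNA-seq libraries of dxo1-2 seedlings described here are 3 of the 9 libraries of a study of DXO1 in Arabidopsis thaliana, a small plant of the mustard family. The libraries were chosen by their assay and genotype labels, and the genes by their identifiers: 36899 of the 37184 genes in the tables are nuclear, and the other 285 carry the prefixes of plastid and mitochondrial genes. DXO1 (AT4G17620) encodes a plant member of the DXO enzymes, which remove incomplete or unusual caps from RNA, and dxo1-2 is a mutant allele of the gene. The labels do not say what the allele changes in the gene. The other 6 libraries are small RNA, 3 of dxo1-2 and 3 of the wild type Col-0.

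All plants grew on soil in long days (16 h light, 8 h dark) from seeds stratified for 2 days at 4 °C, and RNA was taken at 21 days with Trizol. The labels call the tissue seedlings, name no organ, and describe the replicates as biological. They do not say how many plants went into a library. The RNA-seq libraries were stranded total RNA libraries from which ribosomal RNA had been removed with a kit version for plant leaf. Wild-type RNA-seq was not analysed here, so no level below is a difference between genotypes.

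In a green seedling, the chloroplast holds its own small genome and relies on the nucleus for most of its proteins. Nuclear genes encode the small subunit of Rubisco, which fixes carbon dioxide, the antenna proteins, which bind chlorophyll and pass light energy to the photosystems, and the enzymes that make chlorophyll. Their mRNAs are known as the most abundant of leaf cells. Genes of the jasmonate pathway and of touch, wounding and cold are known for fast changes of mRNA level after a stimulus.

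Nuclear genes took about as many counts as plastid genes. Counts on genes were 71210737, 60138933 and 64478196 in replicates 1, 2 and 3, of which nuclear genes held 50.9%, 51.8% and 51.6% (51.4% ± 0.488, SD, n = 3). The 133 plastid genes held 48.0% ± 0.491 and the 152 mitochondrial genes 0.619% ± 0.0106. The 3 libraries thus differed by less than 1 percentage point in this split. Levels below are counts scaled to 1e6 nuclear gene counts per library (CPM), and where genes are compared with each other the CPM is divided by the length of the gene in kb, introns included.

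Protein-coding genes held 99.2% ± 0.0241 of the nuclear counts. Transcribed pseudogenes followed with 0.366% ± 0.0129, long non-coding RNA genes with 0.211% ± 0.00377 and pseudogenes with 0.158% ± 0.00319. The small nucleolar RNA genes, whose products guide the modification of ribosomal RNA, held 0.0428% ± 0.00677. Nuclear ribosomal RNA genes held 0.0189% in replicate 1, 0.00121% in replicate 2 and 0.000734% in replicate 3, so replicate 1 stood apart. This came almost wholly from AT3G41768, at 186, 9.95 and 5.56 CPM. Another of the 4 ribosomal RNA genes, AT2G01010, was at 2.65, 2.12 and 1.77 CPM.

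**Figure D1:**
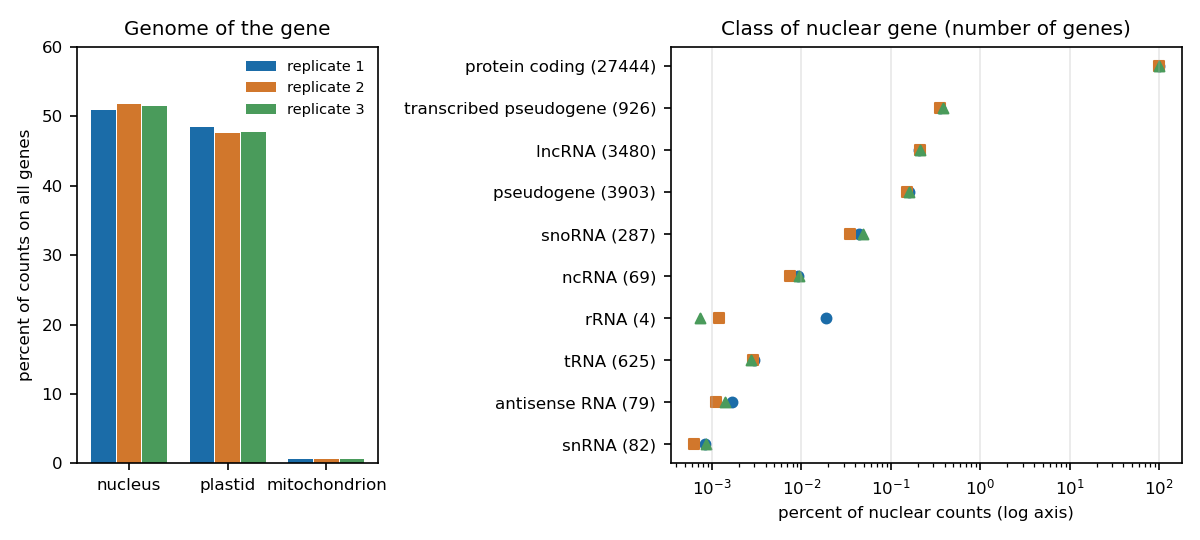
Left, bars give the percent of counts on all genes that fell on nuclear, plastid and mitochondrial genes in each of the 3 dxo1-2 RNA-seq libraries. Right, points give the percent of nuclear counts in each class of nuclear gene on a log axis, with the number of genes in brackets. The libraries lie close together in each class except ribosomal RNA, where replicate 1 is at 0.0189% and the others are at 0.00121% and 0.000734%.

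About 49.6% of the nuclear gene set was detected. At a threshold of 1 CPM or more in all 3 libraries, 18317 nuclear genes passed, and 10988 had 0 counts in all 3. Of 27444 protein-coding genes 17819 passed (64.9%) and 4455 had 0 counts. Of the long non-coding RNA genes 180 of 3480 passed, of the pseudogenes 120 of 3903 and of the transcribed pseudogenes 101 of 926. The median protein-coding gene was at 8.07 CPM, or 3.45 CPM per kb. A mean of at least 10 CPM was reached by 12958 protein-coding genes, at least 100 CPM by 2012 and at least 1000 CPM by 73.

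The 10 highest protein-coding genes took 4.97% ± 0.259 of the protein-coding counts, the 100 highest 17.4% ± 1.03 and the 1000 highest 45.3% ± 1.02 (SD, n = 3). In replicates 1, 2 and 3, 1308, 1234 and 1373 genes were enough to hold 50% of these counts. Replicate 2 was the most concentrated by each of these measures and replicate 3 the least.

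Photosynthesis led the ranking. The 104 nuclear genes of 7 lists (antenna proteins, both photosystems, electron transport, Calvin cycle, photorespiration and tetrapyrrole synthesis) held 13.3%, 14.5% and 12.3% of the protein-coding counts in replicates 1, 2 and 3. They supplied 16 of the 20 highest genes by CPM and 17 of the 20 highest per kb, and 15 genes were in both rankings. Of the 20 highest by CPM, 19 were among the 20 highest of every library.

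RBCS1A (AT1G67090), a Rubisco small subunit gene, had the highest CPM of all nuclear genes. It stood at 7548, 8421 and 7119 CPM in replicates 1, 2 and 3, a mean of 7696 ± 664 CPM (SD, n = 3) or 5097 CPM per kb. Its paralogs were lower in every library: RBCS3B was at 3318 ± 518 CPM, RBCS2B at 749 ± 81.1 CPM and RBCS1B at 741 ± 85.2 CPM. Per kb they stood at 2005, 643 and 344. RCA, the Rubisco activase gene, was at 3098 ± 350 CPM. These paralogs are near-identical in places, and reads with several matches made up 10.5% of all lines of the tables, so how the copies share their reads is uncertain. The same holds for the antenna genes CAB1, CAB2, CAB3, LHB1B1 and LHB1B2.

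Antenna genes filled 9 of the 20 places by CPM. CAB1 (AT1G29930), which encodes a light-harvesting protein of photosystem II, was at 6808, 8077 and 6418 CPM, a mean of 7101 ± 868 CPM. LHCB5, a gene of a minor antenna protein of photosystem II, was at 4862 ± 200 CPM and LHCB3 at 4629 ± 418 CPM. CAB2 was at 4532 ± 269 CPM, LHB1B2 at 4312 ± 724 CPM and CAB3 at 2705 ± 281 CPM. Among the antenna genes of photosystem I, LHCA4 was at 3896 ± 224 CPM, LHCA3 at 2943 ± 276 CPM and LHCA1 at 2759 ± 252 CPM. CAB1, LHCB3, LHB1B2 and LHCA4 overlap another annotated gene, and reads of overlapping genes cannot be told apart where the strand setting is not given.

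Chlorophyll synthesis supplied CRD1 and GUN5. CRD1 (AT3G56940), a subunit of the cyclase that closes the fifth ring of chlorophyll, was at 4336, 4121 and 3900 CPM. GUN5 (AT5G13630), the large subunit of magnesium chelatase, was at 3545, 3699 and 3301 CPM, a mean of 3515 ± 201 CPM. GUN5 is a long gene: it held rank 10 by CPM and rank 50 per kb, at 686 CPM per kb. PSBO1, an oxygen-evolving subunit of photosystem II, and GAPA, a Calvin cycle dehydrogenase gene, completed the set at 2521 ± 311 and 2378 ± 135 CPM. PSBX, PSBR, LHB1B1, LHCB2.1 and the metallothionein gene MT2B were among the 20 highest per kb without being among the 20 highest by CPM; PSBX stood at 2811 CPM per kb and MT2B at 1545 CPM per kb.

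Outside the 7 photosynthesis lists, 4 genes reached the 20 highest by CPM. The catalase gene CAT3, whose product breaks down hydrogen peroxide, was at 2137, 2307 and 2220 CPM. AT5G60390, a member of the reference list, was at 2256 ± 129 CPM and AT2G45180 at 2172 ± 202 CPM. The remaining gene, AT2G07671, was at 4496, 3616 and 5722 CPM, a mean of 4611 ± 1058 CPM, and was the highest gene of all per kb at 5942. Its highest library exceeded its lowest by a log2 of 0.61, the widest range among the 20.

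**Figure D2:**
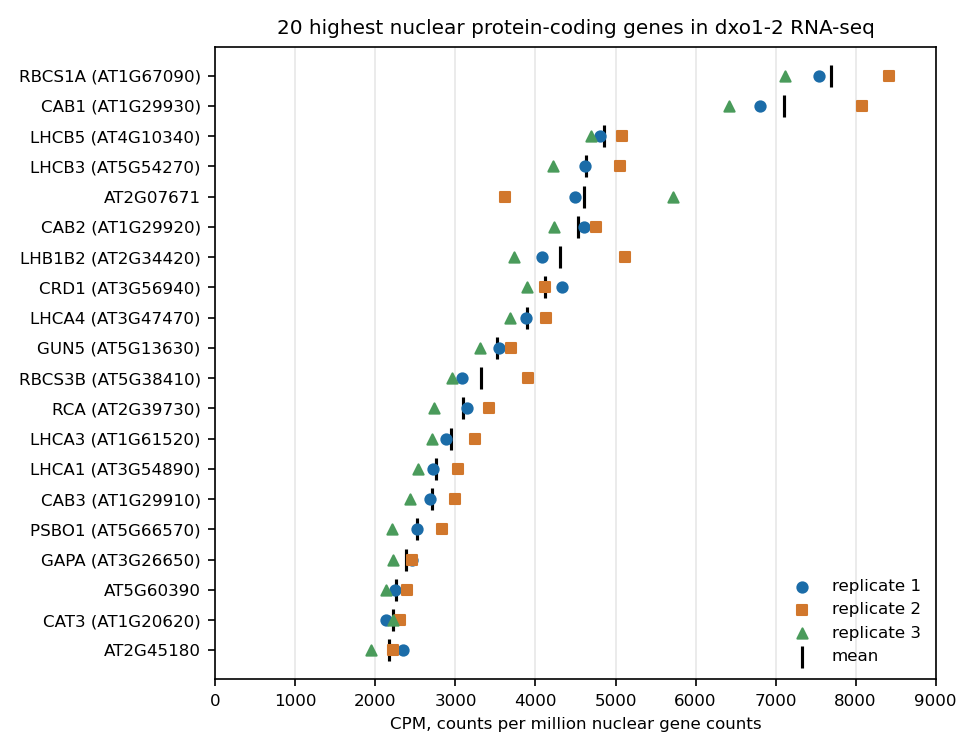
Each row is 1 of the 20 nuclear protein-coding genes with the highest mean CPM in dxo1-2 RNA-seq, the horizontal axis is nuclear CPM, coloured points are the 3 libraries and the black bar is their mean. Replicate 2 is the highest library in most rows and replicate 3 the lowest. AT2G07671 has the reverse order, with replicate 3 at 5722 CPM and replicate 2 at 3616 CPM.

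AT2G07671 lies in a run of neighbouring genes with counts, inside a stretch of chromosome 2 whose other genes are nearly empty. As background, chromosome 2 of Arabidopsis carries a large insertion of mitochondrial DNA near its centromere, so reads from nuclear copies and from mitochondrial transcripts cannot be told apart. The run was bounded after the values were seen, from AT2G07771 to AT2G07741. It holds 164 genes, of which 94 are protein-coding, 22 are tRNA genes and 41 are pseudogenes. Only 6 of the 164 had 0 counts in all 3 libraries, while 83 of the 100 nearest neighbours had 0, counting 50 on each side. The neighbours are of other classes, with 22 protein-coding genes and 72 pseudogenes. Over all nuclear genes, 81.9% of the class pseudogene and 16.2% of protein-coding genes had 0 counts. The part of gene class in the contrast was not tested. In the run 104 genes reached 1 CPM in all 3 libraries, against 6 of the 100 neighbours.

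The run held 1.32%, 1.22% and 1.44% of nuclear counts in replicates 1, 2 and 3, and its neighbours 0.0166% ± 0.000348. Per counts on all genes the run held 0.681% ± 0.0558, beside 0.619% ± 0.0106 for the annotated mitochondrial genome. AT2G07671 alone took 34.2%, 29.7% and 39.8% of the run. AT2G07698 was at 1591 ± 57.9 CPM, AT2G07727 at 1212 ± 15.5 CPM and AT2G07687 at 617 ± 10.8 CPM, each with a smaller spread between libraries than AT2G07671. The run supplied 3 of the 100 highest protein-coding genes and 6 of the 10 highest non-coding genes.

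**Figure D3:**
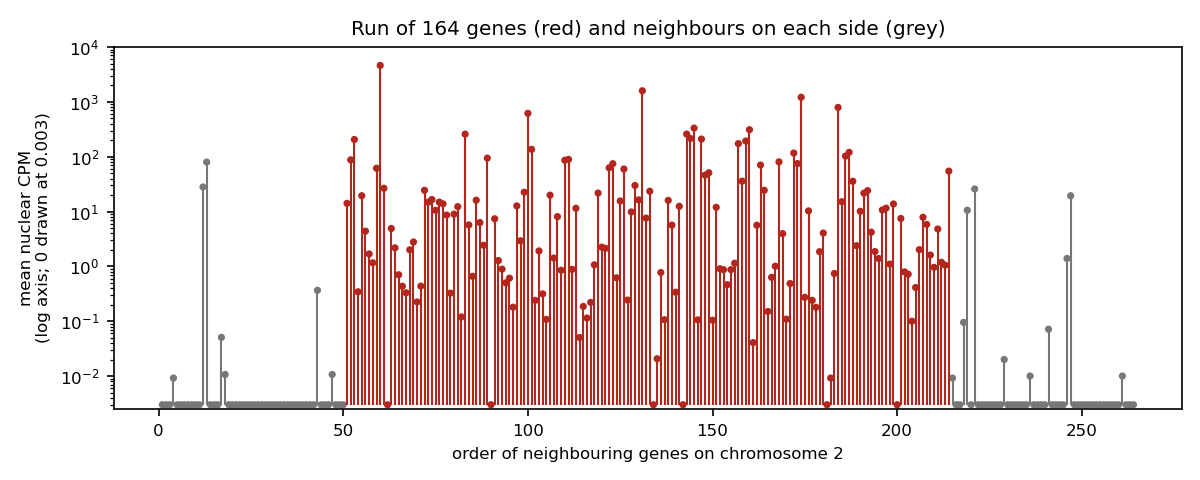
Neighbouring genes on chromosome 2 in their order along the chromosome, with the mean nuclear CPM of the 3 dxo1-2 RNA-seq libraries on a log axis; genes at 0 are drawn at 0.003. The 164 genes of the run are red and the 50 neighbours on each side are grey. The tallest line is AT2G07671 at 4611 CPM, and 83 of the 100 grey genes are at 0.

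Among non-coding genes the transcribed pseudogene AT2G07731, a member of the run, was highest at 790, 789 and 793 CPM. AT2G07709, AT2G07711, AT2G07747, AT2G07717 and AT2G07733 of the run followed at 332 to 103 CPM. Outside the run AT1G79245 was at 493 ± 85.3 CPM, AT1G05163 at 411 ± 19.5 CPM, AT3G06325 at 222 ± 23.5 CPM and AT3G42806 at 142 ± 16.9 CPM. AT1G79245 had the widest range of these 10, at 402, 503 and 572 CPM.

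DXO1 itself was at 2.98, 2.44 and 3.40 CPM, a mean of 2.94 ± 0.481 CPM (SD, n = 3). It held rank 16444 of the 27444 protein-coding genes. It was the lowest of 23 RNA decay genes, of which all 23 reached 1 CPM in each library and whose median was 57.3 CPM. SAL1, whose product clears an inhibitor of the XRN exoribonucleases, was highest of the list at 145 ± 13.4 CPM, followed by the nuclear exoribonuclease gene XRN3 at 114 ± 1.48 CPM. In CPM per kb the list's median was 11.5, with SAL1 at 80.6, XRN3 at 16.3 and DXO1 at 0.928. Without wild-type RNA-seq the level of DXO1 checks nothing about the genotype label. The 8 genes of mRNA cap synthesis and binding, the cap being the structure at the 5′ end of an mRNA, ranged from 17.6 CPM for AT3G52210 to 109 ± 7.83 CPM for EIF4E, the main cap-binding translation factor. AT3G09100 was the next highest at 80.6 ± 7.59 CPM.

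The 29 gene lists ordered the transcriptome from leaf functions down to organs that the libraries barely showed. Antenna proteins had the highest median, 1395 CPM per kb, followed by photosystem II subunits (849), photosystem I subunits (683), the Calvin cycle (477), electron transport and ATP synthase (428), photorespiration (305) and tetrapyrrole synthesis (117). All 104 members of these lists passed 1 CPM in every library and all lay above the median protein-coding gene. Of the 29 lists 23 had a median above the 3.45 CPM per kb of all protein-coding genes. The lists were chosen for their known roles, so this count describes them and is not a test.

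Members of the same photosynthesis list spanned wide ranges of level. The antenna gene AT1G76570 was at 15.7 ± 1.67 CPM, or 8.48 per kb, beside 5773 per kb for CAB1. Among photosystem II subunits PSBO1 and PSBX led and PSBY was lowest at 304 ± 48.3 CPM. Among photosystem I subunits PSAO (1297 ± 84.1 CPM) and PSAF (1163 ± 116 CPM) led and PSAE-2 was lowest at 317 ± 32.5 CPM. The plastocyanin gene DRT112, at 1410 ± 119 CPM, led electron transport, ahead of the ferredoxin gene FED A at 1095 ± 124 CPM, and the ferredoxin gene FD1 was lowest at 137 ± 24.5 CPM.

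In photorespiration SHM1, a mitochondrial serine hydroxymethyltransferase, was highest at 1586 ± 67.0 CPM and GGT1, a peroxisomal aminotransferase, next at 1108 ± 63.2 CPM. PGLP1, the phosphoglycolate phosphatase at the start of the pathway, was lowest at 29.2 ± 2.34 CPM. In the Calvin cycle list RBCS1A and RBCS3B led and CP12-2, a regulatory protein gene, was lowest at 149 ± 19.1 CPM. In tetrapyrrole synthesis CRD1 and GUN5 led and PORA, the protochlorophyllide reductase gene of dark-grown seedlings, was lowest at 80.3 ± 9.09 CPM. The 17 genes of plastid transcription lay within a narrow band, from FSD2 at 29.2 ± 0.632 CPM to the sigma factor genes SIGA at 119 ± 6.81 CPM and SIGF at 140 ± 9.32 CPM. Their median was 21.6 CPM per kb.

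Glucosinolate genes, which make and break down the sulfur compounds of mustard family defence, stood next to photosynthesis with a median of 108 CPM per kb. The myrosinase genes TGG1 and TGG2 were at 1575 ± 17.5 CPM and 775 ± 24.4 CPM, and all 19 members passed 1 CPM. The lowest, ESP, was at 21.7 ± 1.53 CPM. Of the flavonoid list all 11 members passed 1 CPM, led by the chalcone synthase gene TT4 at 154 ± 21.4 CPM and the flavonol synthase gene FLS1 at 39.4 ± 2.55 CPM, with the regulator TT8 lowest at 1.96 ± 0.523 CPM. The 13 reference genes, often used to scale qPCR, had a median of 81.6 CPM per kb, from PEX4 at 19.4 ± 0.699 CPM to GAPC1 at 968 ± 8.94 CPM and AT5G60390.

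**Figure D4:**
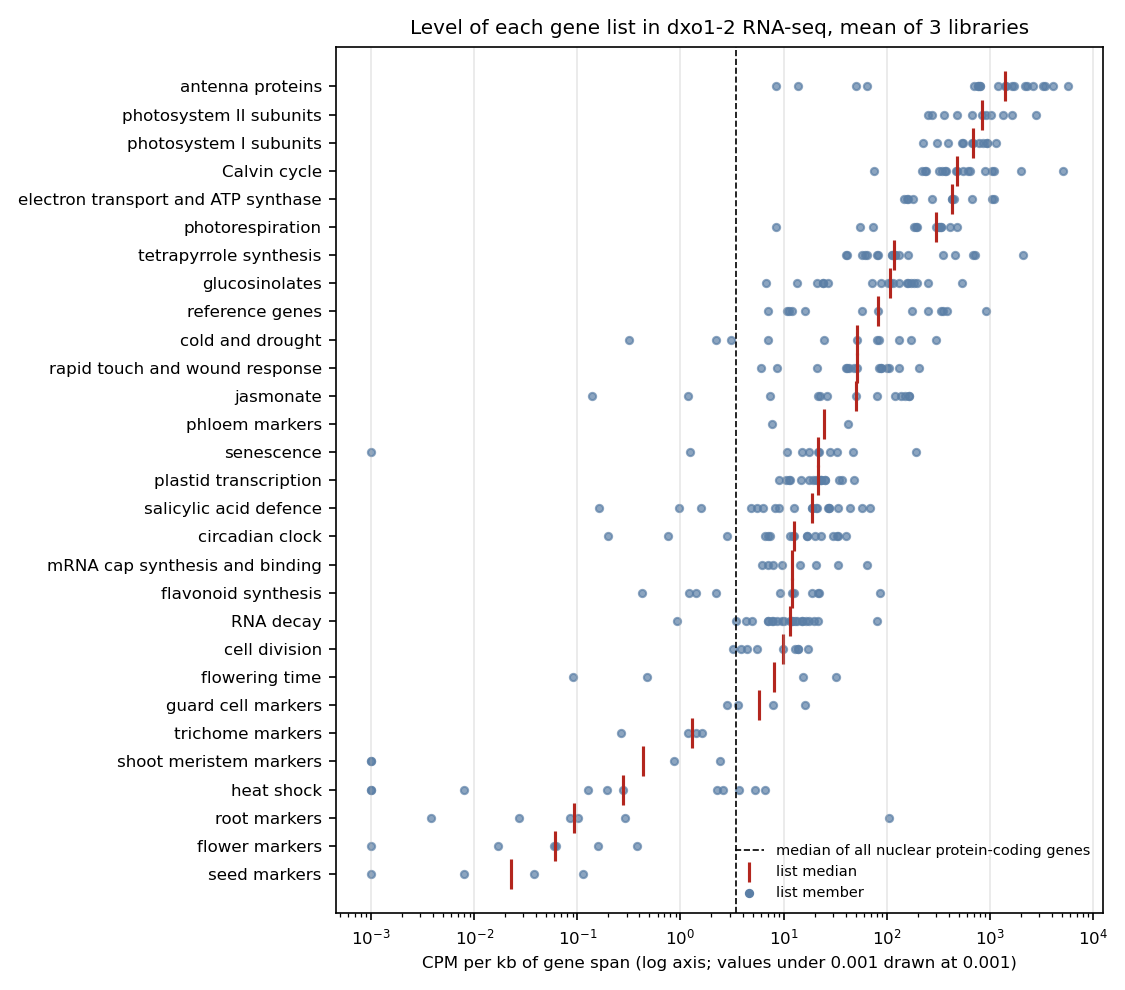
Each row is a gene list, ordered by its median, blue points are its members and the red bar is the list median, all as the mean CPM per kb of gene span over the 3 dxo1-2 RNA-seq libraries on a log axis; the dashed line is the median of all nuclear protein-coding genes, 3.45. Photosynthesis lists lie at the top, with a median of 1395 for antenna proteins, and flower and seed markers at the bottom. The separate point of the root markers is PYK10 at 105 CPM per kb.

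Defence and stress lists were at intermediate levels. For salicylic acid defence, 19 of 20 members passed 1 CPM, with the defence regulators EDS1 at 124 ± 17.2 CPM and WRKY70 at 111 ± 6.51 CPM and with ALD1, which makes a precursor of the mobile signal pipecolic acid, at 0.631 ± 0.169 CPM. For jasmonate, 11 of 13 passed, led by the lipoxygenase gene LOX2 at 562 ± 57.9 CPM and the transcription factor gene MYC2 at 396 ± 48.2 CPM. The thionin gene THI2.1 was lowest at 0.221, 0.0321 and 0.211 CPM. In the touch and wound list all 15 members passed, from DREB1A at 8.42 ± 0.741 CPM to SZF1 at 276 ± 21.6 CPM and the calmodulin-like gene TCH3 at 551 ± 52.1 CPM.

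The cold and drought list spanned a wide range, from the dehydrin gene ERD10 at 517 ± 142 CPM and COR47 at 324 ± 55.7 CPM down to LTI65 at 0.386, 0.0321 and 1.98 CPM. The heat shock list was low: 5 of 11 members passed 1 CPM and the median was 0.595 CPM. HSP70 (AT3G12580), a chaperone gene, was highest at 9.94, 11.3 and 22.9 CPM and HSP90.1 next at 9.08, 5.65 and 14.0 CPM. HSP17.4 and ATHSP22.0 had 0 counts in all 3 libraries. In both of these lists replicate 3 held the highest level of each gene named as highest.

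Senescence genes were detected without the defining late marker. SAG21 was at 206 ± 37.8 CPM and the transcription factor gene WRKY53 at 75.8 ± 6.23 CPM, while SAG12, a protease gene of old leaves, had 0 counts in all 3 libraries. Of 17 clock genes 16 passed 1 CPM. PRR7 was at 142 ± 6.68 CPM, GI at 138 ± 10.7 CPM and CCA1 at 111 ± 9.19 CPM, and ELF4, which did not pass, was at 0.131 ± 0.0542 CPM. The time of day of the harvest is not given in the labels. All 9 cell division genes passed 1 CPM, led by the kinase gene CDC2 at 54.5 ± 1.71 CPM and the replication gene MCM2 at 44.6 ± 2.64 CPM, with CDKB1;1 lowest at 7.11 ± 0.930 CPM. Among flowering time genes the repressor gene SVP was at 138 ± 13.6 CPM, AGL20 at 56.3 ± 3.92 CPM and the repressor gene FLC at 0.549 ± 0.230 CPM.

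Markers of flowers, seeds and most root cells were low or at 0. Of 6 flower markers and 4 seed markers none reached 1 CPM in all 3 libraries: the flower organ genes SEP3 and PI were the highest of theirs at 0.983 ± 0.518 and 0.417 ± 0.313 CPM, AP1 had 0 counts, and the summed level of the seed markers lay between 0.128 and 0.211 CPM. Of 6 root markers 1 passed, the beta-glucosidase gene PYK10 at 346 ± 25.9 CPM, and the root hair gene SHV2 (AT5G49270) was at 0.0100 CPM. The summed root markers ranged from 329 to 376 CPM, nearly all from PYK10. All 4 guard cell markers passed, with KAT1 at 30.7 ± 2.01 CPM, and both phloem markers, SUC2 at 108 ± 8.84 CPM and APL at 16.0 ± 1.27 CPM. Of 4 trichome markers 3 passed, GL2 being highest at 7.23 ± 1.13 CPM. Of 4 shoot meristem markers STM (8.45 ± 1.37 CPM) and KNAT1 (3.00 ± 0.333 CPM) passed, and WUS and CLV3 had 0 counts. In bulk samples, fewer cells of a type and less RNA per cell cannot be told apart.

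The 3 libraries were close to each other but differed by more than counting. The common biological coefficient of variation, the spread between libraries beyond counting error as edgeR estimates it, was 0.103 over protein-coding genes. Across 12958 protein-coding genes of at least 10 CPM, the Pearson correlation of log2 CPM between libraries was 0.988 to 0.992; genes are not independent replicates, so this is a description. The chi-square of counts per gene was 14.1 to 21.9, where sampling noise alone would give about 1, so the libraries differed by more than sampling noise. Between replicates 1 and 3, 39 genes differed by 2-fold or more, against 14 between replicates 2 and 3 and 6 between replicates 1 and 2. After TMM scaling, 610 of the 12958 genes (4.71%) ranged over a log2 of 0.5 or more, 328 of them highest in replicate 3. Of the 48 that ranged over a log2 of 1 or more, 36 were highest in replicate 3 and 30 lowest in replicate 1. Over all 12958 genes the highest library was replicate 1, 2 and 3 for 4005, 4411 and 4542. The lowest library was replicate 1, 2 and 3 for 4339, 4201 and 4418.

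The spread did not simply shrink with level. The median coefficient of variation was 8.07% for genes of 10 to 30 CPM, 5.90% for 30 to 100 CPM, 5.05% for 100 to 300 CPM and 5.38% for 300 to 1000 CPM. It was 8.54% for the 73 genes of 1000 CPM or more, where counting error alone gives a median of 0.445%.

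The 15 genes with the widest range were taken without regard to function. TPS04 (AT1G61120), which makes the volatile precursor geranyllinalool in wounded leaves, was at 7.34, 20.3 and 31.0 CPM in replicates 1, 2 and 3. WRKY18, a transcription factor gene of defence, was at 139, 204 and 333 CPM. XTH18, a cell wall enzyme gene, was at 13.6, 22.3 and 35.2 CPM, and GPT2, a sugar phosphate transporter gene of the plastid, at 6.90, 8.54 and 17.9 CPM. In these replicate 3 was highest and replicate 1 lowest. The widest range of all was that of AT4G28140, at 5.74, 13.6 and 29.1 CPM.

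Other genes had another order. BT2, a scaffold protein gene that responds to sugar and nitrogen, was at 65.8, 59.3 and 19.3 CPM, and OXS3, an oxidative stress gene, at 100, 49.7 and 37.7 CPM, so replicate 3 was lowest in both. DYL1, a dormancy-associated gene, was highest in replicate 2, at 9.41, 23.1 and 14.0 CPM. AT2G07675 and AT2G07768, also highest in replicate 2, belong to the chromosome 2 run. FRB1, AT2G41190, AT3G24420, AT4G36010 and AT1G64380 completed the 15 and were all highest in replicate 3, with log2 ratios of highest to lowest library from 1.25 to 1.76.

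At the other end, 10 genes of at least 100 CPM ranged over a log2 of about 0.01. They were GC5, a golgin of the Golgi membrane, BCAT4, an aminotransferase of glucosinolate synthesis at 427, 414 and 428 CPM, BIP2, a chaperone of the endoplasmic reticulum at 178, 173 and 180 CPM, and ER, the ERECTA receptor kinase gene. HOT5, ckl8, MIPS1, TCP-1, AT1G19400 and AT3G58730 made up the rest. MIPS1, which makes inositol phosphate, was the highest of them at 762 ± 16.4 CPM. The 10 were picked as the narrowest of the 2012 protein-coding genes of at least 100 CPM. Counting error alone gives a median coefficient of variation of 1.44% at 100 to 300 CPM and 0.835% at 300 to 1000 CPM. Ranges this narrow lie within counting error, so they do not show that these genes are more stable than others. The 13 reference genes had a median range of 0.11 in log2, beside 0.18 for all 12958 genes. Their median level was 207 CPM, and the 1573 genes of 100 to 300 CPM had a median range of 0.14.

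The photosynthesis genes moved together across libraries. Of the 86 genes in the 6 lists from antenna proteins to photorespiration, 78 were highest in replicate 2 and 83 were lowest in replicate 3 after TMM scaling. Over all 12958 protein-coding genes of at least 10 CPM, 4411 were highest in replicate 2 and 4418 lowest in replicate 3. With other scalings 73 to 79 of the 86 were highest in replicate 2 and 77 to 83 lowest in replicate 3. The median deviation of antenna genes from their 3-library mean was a log2 of -0.02, 0.21 and -0.16 in replicates 1, 2 and 3, and that of Calvin cycle genes 0.01, 0.16 and -0.14. LHB1B2 had this order, at 4082, 5123 and 3730 CPM. Tetrapyrrole synthesis deviated less, by 0.03, 0.03 and -0.04. The 13 reference genes leaned the same way, with 10 highest in replicate 2 and 8 lowest in replicate 3, by medians of 0.01, 0.04 and -0.06.

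The cold and drought and jasmonate lists were highest in replicate 3. All 7 cold and drought genes of at least 10 CPM were highest in replicate 3, with median deviations of -0.20, -0.18 and 0.35, and ERD10 stood at 443, 426 and 681 CPM. Of 11 jasmonate genes of at least 10 CPM, 8 were highest in replicate 3 and 8 lowest in replicate 1, with median deviations of -0.21, 0.03 and 0.15. Of the 14 touch and wound genes of at least 10 CPM, 9 were highest in replicate 2, with median deviations of -0.13, 0.09 and 0.03. The summed level of that list was instead highest in replicate 3, at 1894, 2096 and 2340 CPM. The salicylic acid list deviated by -0.03, -0.03 and 0.04. The jasmonate synthesis gene OPR3 was at 173, 275 and 334 CPM. Synthesis genes outside the list, picked after their values were seen, had the same order: LOX3 was at 91.7, 153 and 197 CPM, LOX4 at 115, 182 and 226 CPM and AOC3 at 46.4, 60.9 and 104 CPM. The camalexin gene PAD3, picked in the same way, was at 24.6, 30.9 and 52.0 CPM. OPR3 was also named after its values were seen, so the order of these genes is no further support for that of the list. All 7 cell division genes of at least 10 CPM and 13 of 17 plastid transcription genes were highest in replicate 1. Over all 12958 protein-coding genes of at least 10 CPM, 4005, 4411 and 4542 were highest in replicates 1, 2 and 3. Of the same genes 4339 were lowest in replicate 1. All these counts are over genes of 3 libraries, which are not independent, and carry no test. Replicate 1 was also the library with the high ribosomal RNA count, and the part of RNA quality, harvest or batch in these deviations was not tested.

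**Figure D5:**
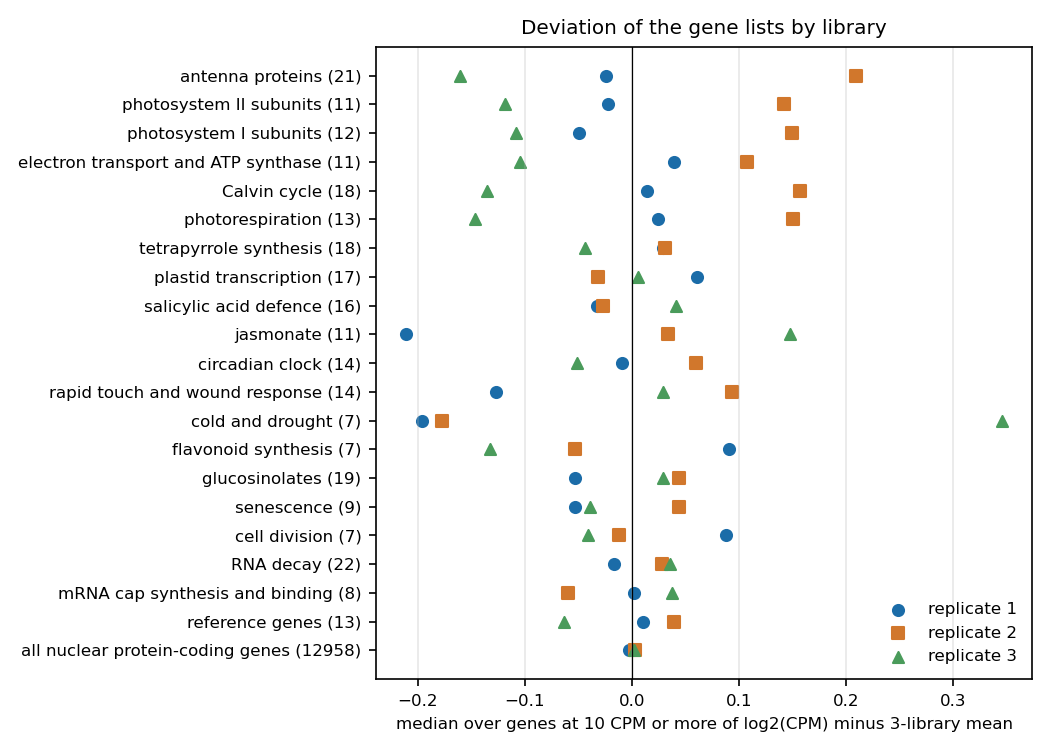
Each row is a gene list with the number of its genes at 10 CPM or more in brackets, and each point is the median over those genes of log2 CPM in 1 library minus the mean of the 3 libraries, after TMM scaling. The 6 lists from antenna proteins to photorespiration are highest in replicate 2 and lowest in replicate 3, cold and drought genes are highest in replicate 3 at 0.35, and jasmonate genes are lowest in replicate 1 at -0.21. The medians over all 12958 genes lie near 0.

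The small RNA libraries gave a second readout for the same genes, and the only one with both genotypes. In the edgeR quasi-likelihood test of dxo1-2 against Col-0, over 11534 genes of every kind with Benjamini-Hochberg adjustment at 0.05, 26.8% were higher in dxo1-2 and 23% lower. Calls on nuclear protein-coding genes were divided unevenly over RNA-seq levels. Of 4455 genes with 0 RNA-seq counts, 1082 were tested, of which 43 were higher and 508 lower in small RNA of dxo1-2. Of 10946 genes of 10 to 100 CPM, 2580 were tested, of which 1488 were higher and 160 lower. The filter on small RNA counts can admit a gene through the counts of either genotype alone, so these are counts of calls and not shares of the tested genes. The RNA-seq levels are those of dxo1-2, and the level of a gene in Col-0 was not analysed here.

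As a share of all genes at a level, tested or not, genes higher in small RNA of dxo1-2 made up 0.965% at 0 RNA-seq counts, 2.06% above 0 and up to 1 CPM, 7.57% from 1 to 10 CPM, 13.6% from 10 to 100 CPM and 30.8% from 100 to 1000 CPM. Genes lower made up 11.4%, 5.50%, 2.39%, 1.46% and 2.78% at the same levels. Over all 27444 protein-coding genes the shares were 9.63% higher and 4.08% lower. Among the 73 genes of 1000 CPM or more, 71 were tested, 16 were higher (21.9% of the 73) and 9 lower (12.3%). The higher share was thus smaller there than from 100 to 1000 CPM, and the lower share was the largest of all levels. The share of genes with enough small RNA counts to be tested was itself larger at high RNA-seq levels, 74.1% from 100 to 1000 CPM against 23.6% from 10 to 100 CPM.

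The balance of calls depends on how the small RNA libraries are scaled, since other scalings shifted the log2 fold changes over all genes by a median of 0.34 (library totals alone), 0.57 (all lines of the tables as library size) and -0.63 (TMM computed on small nuclear RNA genes alone). At 10 to 100 CPM higher calls outnumbered lower calls under each of these scalings, 1730 against 56, 2021 against 33 and 1081 against 395. At 0 RNA-seq counts lower calls outnumbered higher calls with library totals (230 against 118) and with small nuclear RNA genes (923 against 13), and the balance turned with all lines, to 131 lower and 299 higher. Above 0 and up to 1 CPM it was level with library totals, 127 higher and 126 lower, and turned with all lines, to 224 higher and 88 lower. At 1000 CPM or more it turned with small nuclear RNA genes, to 8 higher and 42 lower.

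Of the 10 genes highest in RNA-seq, 9 were tested, 4 were higher in dxo1-2 small RNA and 1 was lower, beside 2642 higher and 1119 lower of 6530 tested protein-coding genes. CAB1 and CAB2 kept their call under every alternative run. CAB2 had 126, 113 and 255 small RNA CPM in Col-0 and 798, 933 and 1007 in dxo1-2 (log2 fold change 2.44, edgeR adjusted p = 5.0e-06). CAB1 had 176, 164 and 349 in Col-0 and 655, 776 and 829 in dxo1-2 (log2 fold change 1.69, edgeR adjusted p = 7.2e-05). These near-identical genes may share small RNA reads.

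LHCB3 had 38.7, 37.8 and 54.9 small RNA CPM in Col-0 and 67.1, 81.0 and 66.1 in dxo1-2 (log2 fold change 0.68, edgeR adjusted p = 0.00203). CRD1 had 5.18, 5.25 and 15.3 in Col-0 and 15.9, 22.9 and 17.4 in dxo1-2 (log2 fold change 1.09, edgeR adjusted p = 0.0175). With scaling on small nuclear RNA genes neither passed, at log2 fold changes of 0.04 for LHCB3 and 0.44 for CRD1. CRD1 also did not pass when a Col-0 library was left out, replicate 1 (0.81) or 2 (0.80), or when replicate 2 of dxo1-2 was (0.92). In both genes Col-0 replicate 3 was the highest Col-0 library.

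AT2G07671 was the gene called lower, from 187 ± 9.49 to 141 ± 9.05 small RNA CPM (SD, n = 3 each; log2 fold change -0.43, edgeR adjusted p = 0.000649). With library totals alone it did not pass, at -0.09, and with all lines as library size its sign turned, at 0.14. RBCS1A, the highest in RNA-seq, had 113, 95.0 and 214 CPM in Col-0 and 177, 208 and 210 in dxo1-2, and did not pass (log2 fold change 0.47, edgeR adjusted p = 0.0962). Without Col-0 replicate 3 RBCS1A passed, at a log2 fold change of 0.87. LHCB5, LHCA4 and GUN5 did not pass either, at log2 fold changes of 0.35, 0.16 and 0.28, and each passed without Col-0 replicate 3, at 0.62, 0.48 and 0.71. RBCS1A, LHCB5, LHCA4 and GUN5 were all called higher when scaled by library totals alone, and also when all lines made up the library size, and LHCA4 was called lower with scaling on small nuclear RNA genes, at -0.48. LHB1B2, at 4312 CPM in RNA-seq, had 0 small RNA counts in all 6 libraries. It overlaps another annotated gene and resembles other antenna genes, and whether its small RNA reads were lost in counting was not tested.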

How the data were processed

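The deposited files hold raw counts for 37184 genes in each library, followed by 5 summary lines. HISAT2, HTSeq, DESeq2, Bowtie, bedtools and the build TAIR10 are named per the submitters' processing notes; their roles, settings and strand rule are not given in the sources used here. Summary lines were left out of library sizes: in RNA-seq, 8.55% of all lines had no feature, 10.5% several matches and 0.999% were ambiguous. Symbols, classes, lengths and gene order came from a RefSeq table of TAIR10.1, which matched 36899 identifiers; no coordinates are given, and microRNA loci are not analysed here.

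CPM and shares were computed with pandas 2.3.3 on nuclear counts. TMM scaling, the common dispersion of the 3 RNA-seq libraries (intercept only) and the small RNA test (glmQLFit and glmQLFTest, filterByExpr, genotype as the only term, two-sided, prior count 0.125) used edgeR 4.0.16 in R 4.3.3. Alternatives used DESeq2 1.42.0 and limma 3.58.1. Small RNA libraries held 3976221 to 5698185 counts on genes. When the small RNA comparison was tested on simulated data (11005 genes), edgeR called 51 of 90 genes changed by a log2 of 1, 89 of 90 changed by a log2 of 2 and 4 of 10825 unchanged genes. The simulation gave all genes the same dispersion and changed few genes, set equally up and down. In the real comparison 26.8% of the tested genes were called higher and 23% lower, and the calls depended on scaling. The simulated figures are therefore not the error rates of the real calls. A simulated biological coefficient of variation of 0.1 was estimated as 0.0994.

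The members, lists and named-gene rule were chosen with earlier results of these data known. The rule named the 20 highest protein-coding genes by CPM and per kb, the 10 highest non-coding genes, the 15 genes with the widest range (10 CPM or more) and the 10 with the narrowest (100 CPM or more), the 2 highest members and the lowest of each list, DXO1, and small RNA values of the 10 highest genes. RBCS2B, RBCS1B, AT2G01010, AT3G41768, LOX3, LOX4, AOC3, OPR3, PAD3, SHV2 and genes of the chromosome 2 run were named after their values were seen.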

Additional observations from a re-analysis of the deposited data

How the results depend on the processing

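The number of nuclear genes at 1 CPM or more in all 3 libraries was 18317 and lay between 17131 (threshold 2 CPM) and 19271 (0.5 CPM); leaving out 1 replicate gave 18420 to 18519, and all gene counts as library size 17181. The share of the 100 highest genes was 17.4% and 16.0% when they were ranked per kb, and 16.9% to 17.9% without 1 replicate. The common biological coefficient of variation was 0.101 to 0.106 under other scalings, filters and tools, 0.0900 without replicate 3 and 0.113 without replicate 2. In each alternative run 23 of the 29 lists kept a median above that of all protein-coding genes. Levels of the 20 highest genes moved by more than 1 SD only with all gene counts as library size, by construction. Small RNA calls on protein-coding genes of 10 CPM or more in RNA-seq were 2102 higher and 223 lower. With a mean of at least 50 counts, which tests fewer genes, they were 409 and 94. The lower calls were 78 with library totals alone, 47 with all lines as library size and 698 when TMM was computed on small nuclear RNA genes alone; the cause was not tested. Of the 9 tested genes among the 10 highest in RNA-seq, the small RNA log2 fold change turned negative with scaling on small nuclear RNA genes for RBCS1A (-0.21), LHCB5 (-0.31), LHCA4 (-0.48) and GUN5 (-0.37), and for LHCA4 (AT3G47470) also in 3 of the 6 fits that left out 1 library, which ranged from -0.0699 to 0.479. It turned positive for AT2G07671 with all lines as library size (0.14). LHCA4 was called lower with scaling on small nuclear RNA genes. RBCS1A, LHCB5, LHCA4 and GUN5 were called higher with library totals alone (0.82, 0.69, 0.50 and 0.62) and with all lines (1.04, 0.92, 0.73 and 0.85). RBCS1A also passed with limma-voom, the replicate block and no filter (0.55, 0.53 and 0.49), and LHCB5 with no filter (0.38). Leaving out 1 small RNA library gave 1785 to 2615 higher and 155 to 247 lower calls. With the replicate block the calls were 1963 and 200. Deviations of same-numbered libraries from their genotype mean correlated at 0.110, -0.0957 and -0.0349, and those of unlike-numbered libraries at -0.177 to 0.209. With 3 libraries per genotype these values cannot tell whether equal numbers share a batch, and the labels do not say. A planned count of promoter motifs was not run. RNA-seq alone holds 1 genotype, which limits every statement on it to levels and spread. The scalings of list directions and the library sizes without the chromosome 2 run were chosen after the data were seen; without the run the detected genes numbered 18356 and the share was 17.1%.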

Other observations

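Gene families, collected by symbol after the data were seen, differed in how many members were detected at 1 CPM or more in all 3 dxo1-2 RNA-seq libraries, beside 64.9% of all protein-coding genes. Genes without a matching symbol were left out, so the counts below are of members named by symbol and not of whole families. Whether the left-out members were detected as often was not tested. Of 12 PIP aquaporin genes, which encode water channels, 11 passed, led by PIP2A at 929 ± 64.0 CPM and PIP1B at 749 ± 48.9 CPM (SD, n = 3). Of 16 TCP transcription factor genes 13 passed, with TCP2 at 105 ± 2.11 CPM, and of 58 UGT glycosyltransferase genes 45. Of 27 tau glutathione transferase genes 20 passed, with GSTU20 at 694 ± 37.1 CPM, and the phi member GSTF9 was at 1082 ± 47.5 CPM. WRKY factors stood at 42 of 67, with WRKY33 at 270 ± 22.2 CPM, NAC factors at 46 of 81, with NAC102 at 273 ± 25.4 CPM, and MYB factors at 51 of 115, with MYB96 at 114 ± 3.51 CPM.

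Among these families the smallest shares of members were detected of the MADS-box AGAMOUS-LIKE genes, many of which act in flowers and seeds, and of the RALF signalling peptides. Of 77 AGAMOUS-LIKE genes 12 passed and 31 had 0 counts in all 3 libraries, with AGL20 highest at 56.3 ± 3.92 CPM and AGL31 next at 50.4 ± 4.42 CPM. Of 34 RALF genes 8 passed and 23 had 0 counts, with RALF23 at 56.5 ± 10.2 CPM. Of 219 cytochrome P450 genes 110 passed, led by the glucosinolate gene CYP79F1 at 531 ± 17.4 CPM. The cell wall gene XTH4 was at 430 ± 17.5 CPM, against 23.7 ± 10.9 CPM for XTH18 of the same family.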
